A study of Mus musculus and Homo sapiens with 47 samples.

Results

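The comparison described here is the step from day 1 to day 3 of UNC1999 treatment in SUDHL10, a human diffuse large B cell lymphoma line of germinal centre type known to carry an activating EZH2 mutation. It sets the 2 day 3 libraries, replicates 1 and 2, against the 2 day 1 libraries, replicates 1 and 2. They were chosen by their labels, and are 4 of the 13 SUDHL10 RNA libraries among the 47 samples of the series. UNC1999, at 5 uM, inhibits the catalytic subunits EZH2 and EZH1, and the question is which genes move first within treatment. The other libraries used beside it are 2 each from days 5 and 6 of the same treatment, 1 each from days 1, 3 and 5 of 5 uM MAK683, which binds EED, and 2 untreated libraries from day 5. No untreated library of day 1 or day 3 was used here, so 3 days of compound and 3 days in culture cannot be told apart. The labels call the libraries biological replicates and name no separate cultures. A p-value here reflects only how far libraries of a group vary, pooled over all 13, and that variation may be technical.

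Polycomb repressive complex 2 (PRC2) places methyl groups on lysine 27 of histone H3, and genes that carry the trimethylated form are kept silent. Its core holds EZH2 or EZH1 as the enzyme, with SUZ12 and EED as partners. In germinal centre B cells EZH2 holds down genes of cell cycle arrest and of plasma cell maturation. When the enzyme is inhibited the mark is diluted as cells divide, so the loss takes days.

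The 4 libraries held 29279252 to 35824210 counts, and the 13 libraries 26234896 to 39315662. All 6 B cell markers looked at were present in each of the 4 libraries, at 146 to 1210 CPM, which is a count scaled to library size after trimmed mean of M values correction. The replicates of a group differed by more than counting noise, and the day 3 pair differed most. A chi-square per degree of freedom, which grows with differences beyond counting noise, was 19 on day 3 and 8.36 on day 1. The other pairs were at 5.78 to 15.2. The tests used a spread pooled over all 13 libraries, which may understate that of day 3. On the third principal component both day 3 libraries and the MAK683 day 3 and day 5 libraries lay on one side and the other 9 on the other side. The MAK683 day 5 library stood apart from all others, and its removal left the counts of called genes in these comparisons within 1.5 times of the values given.

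EZH2 itself was at 207 and 224 CPM on day 3, against 188 and 211 CPM on day 1, and was not called (log2 fold change 0.11 ± 0.09 SE, adjusted p = 0.321). SUZ12 was at 186 and 186 CPM on day 3, against 198 and 198 CPM on day 1, and was not called either (adjusted p = 0.376). EED fell to 40 and 40.8 CPM on day 3, against 51.2 and 54 CPM on day 1 (log2 fold change -0.38 ± 0.1 SE, adjusted p = 0.00366). EZH1 fell to 47.2 and 38.9 CPM on day 3, against 52.1 and 61.2 CPM on day 1 (log2 fold change -0.4 ± 0.12 SE, adjusted p = 0.0117). Both calls were lost without day 1 replicate 2 (adjusted p = 0.157 for EED and 0.384 for EZH1), and that of EZH1 also without day 3 replicate 2 (0.171). CDKN2A, a cell cycle inhibitor long studied as a Polycomb target, was at 116 and 109 CPM on day 3 and 106 and 115 CPM on day 1 (adjusted p = 0.847).

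Of 15278 genes tested with edgeR's quasi-likelihood test, 5401 were called at an adjusted p under 0.05. On day 3, 2626 genes (17.2%) were higher than on day 1 and 2775 (18.2%) were lower. The larger changes ran mostly upward: 1407 genes (9.21%) were called and at least 2-fold higher on day 3, and 224 (1.47%) were called and at least 2-fold lower. The median log2 fold change was 1.14 among genes called higher and -0.43 among genes called lower. The split of calls moved with the fit: a fit to the 8 UNC1999 libraries called 3308 higher and 1899 lower, one without the filter on low counts called 3180 higher and 1810 lower, and one without day 1 replicate 2 called 2194 higher and 1098 lower, 3292 in all. No gene called in the fit to all 13 libraries was called in the opposite direction under any alternative.

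**Figure D1:**
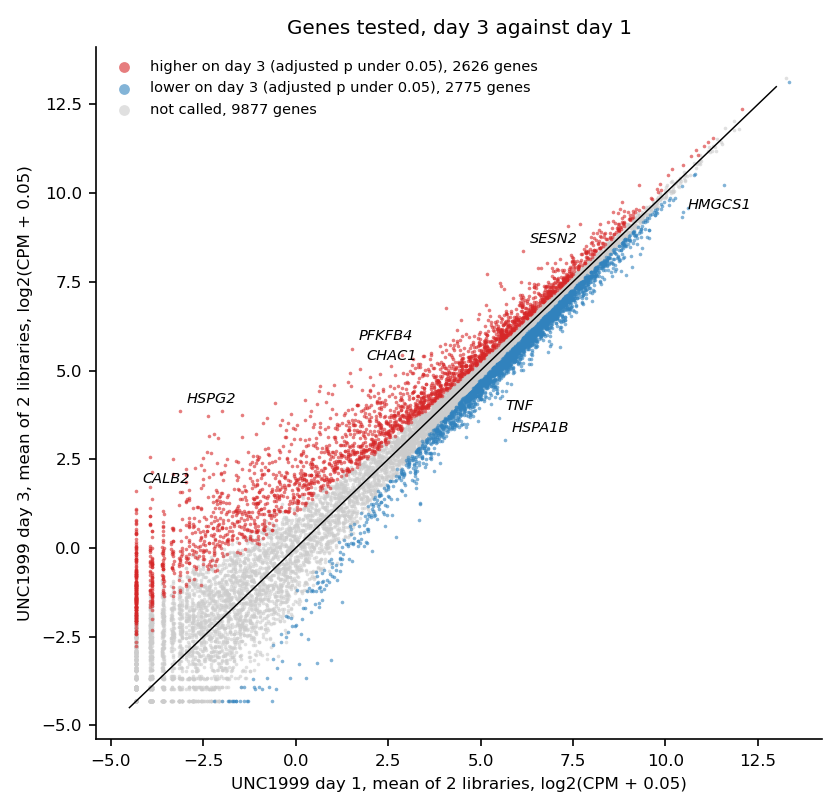
Mean level of each tested gene on UNC1999 day 3 (vertical) and day 1 (horizontal), both as log2(CPM + 0.05) over 2 libraries, with the diagonal marking equal levels. The 2626 genes called higher on day 3 reach far above the diagonal at low day 1 levels, while the 2775 called lower stay close under it.

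Some of the largest rises were in genes that were almost silent on day 1 and kept gaining after day 3. HSPG2, which encodes the basement membrane proteoglycan perlecan, reached 13.3 and 15.5 CPM on day 3, against 0.0617 and 0.0687 CPM on day 1, where it had 4 counts in all. Its log2 fold change was 7.71 ± 0.32 SE (adjusted p = 2.25e-14). It stood at 28.9 and 27.1 CPM on day 5 and 32.4 and 38.2 CPM on day 6, against 0.253 and 0.206 CPM untreated. HSPG2 was thus higher on each later day, with its largest fold between day 1 and day 3, but its step from day 5 to day 6 was not called (adjusted p = 0.408).

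SYNPO, an actin-binding protein, was at 14.3 and 14.4 CPM on day 3, against 0.123 and 0.275 CPM on day 1 (log2 fold change 6.17 ± 0.27 SE, adjusted p = 3.37e-14), or 6.91 without day 1 replicate 2. It was at 165 and 188 CPM on day 6, against 6.94 and 8.28 CPM untreated. ACE, the angiotensin-converting enzyme, was at 8.02 and 9.84 CPM on day 3, against 0.123 and 0.172 CPM on day 1 (log2 fold change 5.9 ± 0.29 SE, adjusted p = 3.02e-13). Both genes were several times higher on day 6 than on day 3.

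DAB2IP, a Ras GTPase-activating protein, was at 14.7 and 11.6 CPM on day 3, against 0.185 and 0.103 CPM on day 1 (log2 fold change 6.46 ± 0.31 SE, adjusted p = 3.02e-13). CD6, a receptor best known on T cells, was at 8.11 and 10.4 CPM on day 3, against 0.123 and 0.206 CPM on day 1 (log2 fold change 5.8 ± 0.34 SE, adjusted p = 4.92e-12). PDK2, a kinase that restrains pyruvate dehydrogenase, had 145 counts on day 3 and 1 count on day 1, a ratio of 131 with an exact 95% interval of 23.1 to 5190. DAB2IP, CD6 and PDK2 were all higher again on day 5, at 22.1 and 21.8 CPM, 17.6 and 18.4 CPM, and 7.93 and 6.51 CPM.

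Among genes already measurable on day 1, NEDD4L, a ubiquitin ligase, rose to 21.1 and 20.1 CPM on day 3, against 1.88 and 1.68 CPM on day 1 (log2 fold change 3.53 ± 0.15 SE, adjusted p = 3.37e-14). RAP1GAP2, an inactivator of the small GTPase Rap1, rose to 83.6 and 88.1 CPM on day 3, against 21.6 and 22.6 CPM on day 1 (log2 fold change 1.96 ± 0.08 SE, adjusted p = 3.37e-14). DBN1, the actin-binding protein drebrin, rose to 43.2 and 43.5 CPM on day 3, against 7.74 and 6.91 CPM on day 1 (log2 fold change 2.56 ± 0.12 SE, adjusted p = 9.57e-14). All 3 genes had replicates close to each other on day 3 and were higher still on day 5, RAP1GAP2 at 208 and 208 CPM.

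Other large rises were lower again on later days. Of the 15 largest, PPFIA4 and NDRG1 were called lower on day 5 than on day 3, a step that shares the day 3 libraries. PPFIA4, a liprin scaffold protein, was at 4.37 and 4.38 CPM on day 3, against 0 and 0.0344 CPM on day 1, a count ratio of 269 with an exact 95% interval of 47.9 to 10700. It was back at 0.388 and 0.199 CPM on day 5, while the untreated libraries stood at 5.79 and 3.89 CPM. HOXB9, a homeobox transcription factor, was at 2.88 and 5.27 CPM on day 3, against 0.123 and 0.0344 CPM on day 1 (log2 fold change 5.6 ± 0.69 SE, adjusted p = 8.96e-07, or 6.74 without day 1 replicate 1), and at 3.51 and 4.36 CPM untreated. For PPFIA4 and HOXB9 the day 3 levels were those of untreated cells, and the low values were those of day 1 and of days 5 and 6.

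CALB2, the calcium-binding protein calretinin, was at 3.77 and 2.17 CPM on day 3 and had no count on day 1, at least 59.7-fold higher against a floor of 3 counts over the day. It was at 0.647 and 0.969 CPM on day 5, a difference from day 3 that was not called (log2 fold change -1.87, adjusted p = 0.0779). MPP2, a membrane scaffold protein, and SEC14L5 also had no count on day 1 and were at least 43.2-fold and 41.1-fold higher on day 3, but MPP2 went on to 4.14 and 3.75 CPM on day 6. NDRG1, a gene known to respond to low oxygen, was at 2.92 and 8.34 CPM on day 3, against 0.0308 and 0.0687 CPM on day 1 (3 counts in all), and day 3 replicate 2 was the higher library. The count ratio was 120, with an exact 95% interval of 40.7 to 583. EPHB1, a receptor tyrosine kinase, BAMBI, a decoy receptor of the TGF-beta family, NHSL1 and ARHGEF16 complete the 15 largest rises, with 1 to 3 counts each on day 1 and count ratios of 84.6 to 376. The ratio of 376 was that of NHSL1, which was at 2.03 and 9.62 CPM on day 3, so most of its counts came from day 3 replicate 2. Untreated cells held 1.07 and 1.41 CPM of NHSL1.

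The falls were smaller. By the naming rule the largest falls had a day 1 mean of at least 2 CPM, while a named rise could start from no count. HSPA1B, an inducible heat shock protein of the HSP70 family, fell to 9.13 and 7.23 CPM on day 3, against 52.4 and 49.4 CPM on day 1 (log2 fold change -2.64 ± 0.13 SE, adjusted p = 3.02e-13). It has a near-identical copy, HSPA1A, so its reads may have been shared. TNF, the inflammatory cytokine, fell to 12.8 and 12.4 CPM on day 3, against 44.1 and 45.6 CPM on day 1 (log2 fold change -1.83 ± 0.14 SE, adjusted p = 3.49e-10). Untreated cells had 12.7 and 11.8 CPM of HSPA1B and 17.7 and 16.1 CPM of TNF, so for both genes it was the day 1 libraries that lay far above the untreated ones.

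RHOBTB2 fell to 202 and 213 CPM on day 3, against 520 and 449 CPM on day 1 (log2 fold change -1.23 ± 0.08 SE, adjusted p = 3.55e-11). HRH3, a histamine receptor, had the largest fitted fall, to 0.539 and 0.0544 CPM on day 3, against 1.79 and 2.92 CPM on day 1 (log2 fold change -3.01 ± 0.76 SE, adjusted p = 0.00319), a call lost without day 3 replicate 2 (-2.12, adjusted p = 0.0534). Without day 3 replicate 1 its value was -5.34. KIAA1024, FAM212A and PLK3, a stress-responsive kinase, had log2 fold changes of -2.47, -2.14 and -2.13. PLK3 was at 3.55 and 1.17 CPM on day 3, against 9.41 and 11 CPM on day 1, and its value was -3.12 without day 3 replicate 1 and -1.52 without day 3 replicate 2. The remaining falls of the 15 largest, which include the leptin receptor LEPR, lay between log2 fold changes of -1.95 and -1.63. FFAR1, RAB38, AKR7L, GUSBP2, ERMN and KLRAP1, all of them among these low genes, each lost the call when 1 library was left out.

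**Figure D2:**
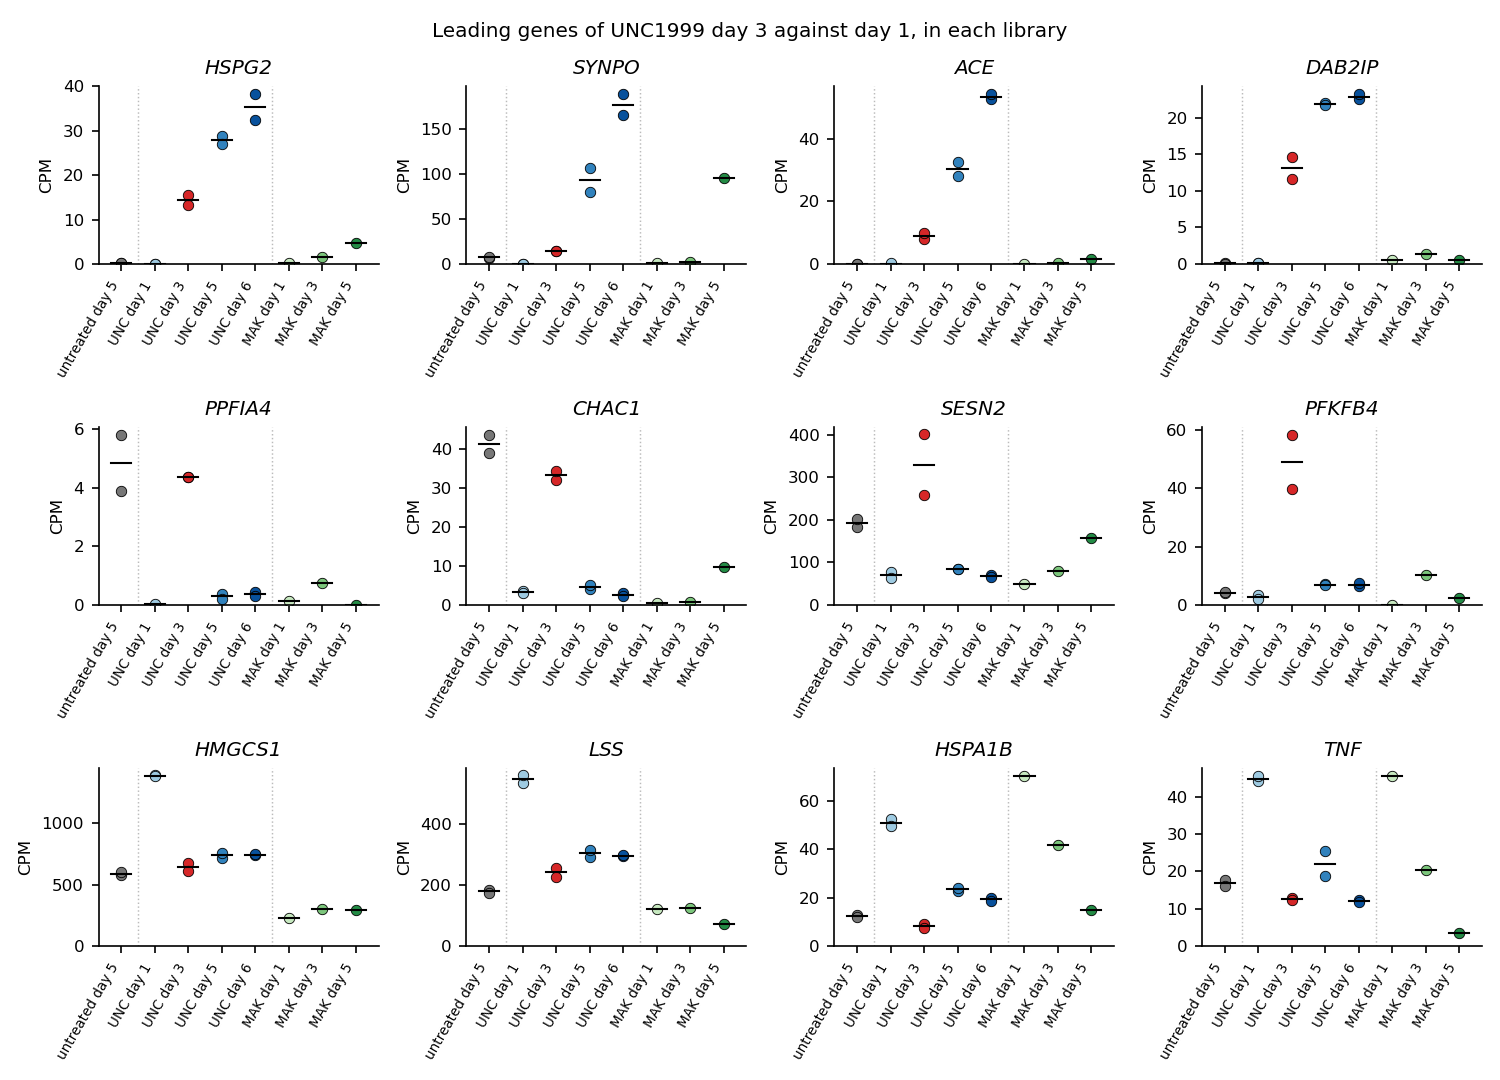
Level in CPM of 12 leading genes in each of 13 libraries, with UNC and MAK for UNC1999 and MAK683, each point 1 library and each short line the group mean. HSPG2, SYNPO, ACE and DAB2IP climb through days 3 and 5, and of these SYNPO and ACE alone were called higher on day 6 than on day 5. PPFIA4, CHAC1, SESN2 and PFKFB4 peak on day 3 within UNC1999 treatment, and HMGCS1, LSS, HSPA1B and TNF are highest on day 1 within it.

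Genes of glycolysis and of the response to low oxygen rose together. Of 35 such genes tested, 26 were called higher on day 3 than on day 1 (74.3%) and none lower. Their median log2 fold change was 0.8, against -0.02 over all genes tested. Here and for each list below, the shares of all genes to set beside counts of day 3 against day 1 of UNC1999 are 17.2% higher and 18.2% lower. PFKFB4, which makes a sugar phosphate that drives glycolysis, rose to 39.9 and 58.2 CPM on day 3, against 3.55 and 2.1 CPM on day 1 (log2 fold change 4.11 ± 0.22 SE, adjusted p = 1.28e-12). PFKFB3, its paralog, rose to 133 and 203 CPM on day 3, against 47.5 and 47 CPM on day 1 (log2 fold change 1.83 ± 0.12 SE, adjusted p = 5.32e-11). BNIP3, a receptor for the removal of mitochondria, rose to 82.1 and 109 CPM on day 3, against 30.2 and 32.4 CPM on day 1 (log2 fold change 1.61 ± 0.11 SE, adjusted p = 1.26e-10). SLC16A3, which exports lactate, rose to 33.3 and 52.4 CPM on day 3, against 13 and 12.2 CPM on day 1 (log2 fold change 1.77 ± 0.16 SE, adjusted p = 1.23e-08). In each of these 4 genes day 3 replicate 2 was the higher library.

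Values for 3 glycolytic enzymes were smaller. LDHA, which turns pyruvate into lactate, was called higher at a log2 fold change of 0.51 ± 0.07 SE, and ENO1 at 0.29 ± 0.07 SE, while GAPDH was not called (adjusted p = 0.121). By day 5 the list was back near its day 1 level: 26 of the 35 genes were called lower on day 5 than on day 3 and none higher. Of all genes, 14.4% were called lower and 14.2% higher in that step. That later comparison uses the same day 3 libraries, so its direction is not an independent result. The list's median level, relative to day 1 on a log2 scale, was 0.504 and 0.869 in the day 3 libraries, 0.02 and 0.007 on day 5 and -0.01 and 0.047 in untreated cells.

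Targets of ATF4, the transcription factor that answers shortage of amino acids, also rose. Of 27 tested, 23 were called higher on day 3 and none lower, with a median log2 fold change of 0.77. CHAC1, which breaks down glutathione, rose to 32 and 34.4 CPM on day 3, against 3.61 and 2.96 CPM on day 1 (log2 fold change 3.33 ± 0.18 SE, adjusted p = 1.28e-12). SESN2, a leucine sensor that restrains mTORC1, rose to 259 and 401 CPM on day 3, against 78.4 and 64.2 CPM on day 1 (log2 fold change 2.21 ± 0.13 SE, adjusted p = 7.87e-12). DDIT4, another inhibitor of mTORC1, rose to 439 and 632 CPM on day 3, against 162 and 166 CPM on day 1 (log2 fold change 1.71 ± 0.11 SE, adjusted p = 1.99e-11). VLDLR, a lipoprotein receptor, rose to 13.3 and 20.1 CPM on day 3, against 1.05 and 1.82 CPM on day 1 (log2 fold change 3.55 ± 0.25 SE, adjusted p = 9.16e-11).

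Examples with roles in amino acid supply are SLC7A11 and ASNS. The cystine importer SLC7A11 was at 112 and 204 CPM on day 3, against 49.4 and 49.6 CPM on day 1, and asparagine synthetase, ASNS, at 223 and 255 CPM on day 3, against 121 and 125 CPM on day 1. DDIT3, the stress transcription factor CHOP, was not called (log2 fold change 0.28 ± 0.16 SE, adjusted p = 0.188). Of the 27 genes, 21 were called lower on day 5 than on day 3 (77.8%, against 14.4% of all genes), again with shared day 3 libraries. Untreated cells held this list higher than any of the 8 UNC1999 libraries, at median log2 levels of 1.128 and 1.303 above day 1, against 0.675 and 0.937 for the day 3 libraries.

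Cholesterol synthesis went the other way. Of 33 genes of cholesterol synthesis, uptake and sterol sensing tested, 24 were called lower on day 3 and 5 higher, with a median log2 fold change of -0.58. HMGCS1, an early enzyme of the pathway, fell to 672 and 612 CPM on day 3, against 1390 and 1380 CPM on day 1 (log2 fold change -1.11 ± 0.07 SE, adjusted p = 2.71e-11). LSS, lanosterol synthase, fell to 258 and 227 CPM on day 3, against 537 and 561 CPM on day 1 (log2 fold change -1.18 ± 0.08 SE, adjusted p = 4.51e-11). The sterol sensor INSIG1 fell as well, by a log2 fold change of -1.04.

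The 5 members called higher were ABCG1, MYLIP, ABCA1, INSIG2 and NPC1. ABCG1 and ABCA1 export cholesterol, MYLIP is a ubiquitin ligase, and all 3 are known targets of the sterol-activated LXR receptors. ABCG1 rose to 11.4 and 13 CPM on day 3, against 0.648 and 1.62 CPM on day 1 (log2 fold change 3.45 ± 0.23 SE, adjusted p = 5.84e-11), or 4.32 without day 1 replicate 2. MYLIP rose to 32 and 40 CPM on day 3, against 9.56 and 10 CPM on day 1 (log2 fold change 1.88 ± 0.14 SE, adjusted p = 3.73e-10). The summed level of the list was 5210 to 5570 CPM on day 3, against 8600 to 8680 CPM on day 1. It was 5860 to 6300 CPM in untreated cells and 2980 CPM in the MAK683 day 1 library, so the day 1 UNC1999 libraries were the highest of the 13.

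Of 16 fatty acid synthesis genes, 6 were called higher (37.5%) and 3 lower (18.8%), the second share near the 18.2% of all genes. FASN, fatty acid synthase, fell to 759 and 657 CPM on day 3, against 1430 and 1430 CPM on day 1 (log2 fold change -1.02 ± 0.08 SE, adjusted p = 5.65e-10). ACACB, which makes malonyl-CoA at mitochondria, rose to 4.47 and 7.37 CPM on day 3, against 0.524 and 0.275 CPM on day 1 (log2 fold change 3.86 ± 0.44 SE, adjusted p = 2.38e-07). The desaturases FADS1 and SCD5 rose by log2 fold changes of 1.7 and 2.44, the second 3.29 without day 1 replicate 2.

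**Figure D3:**
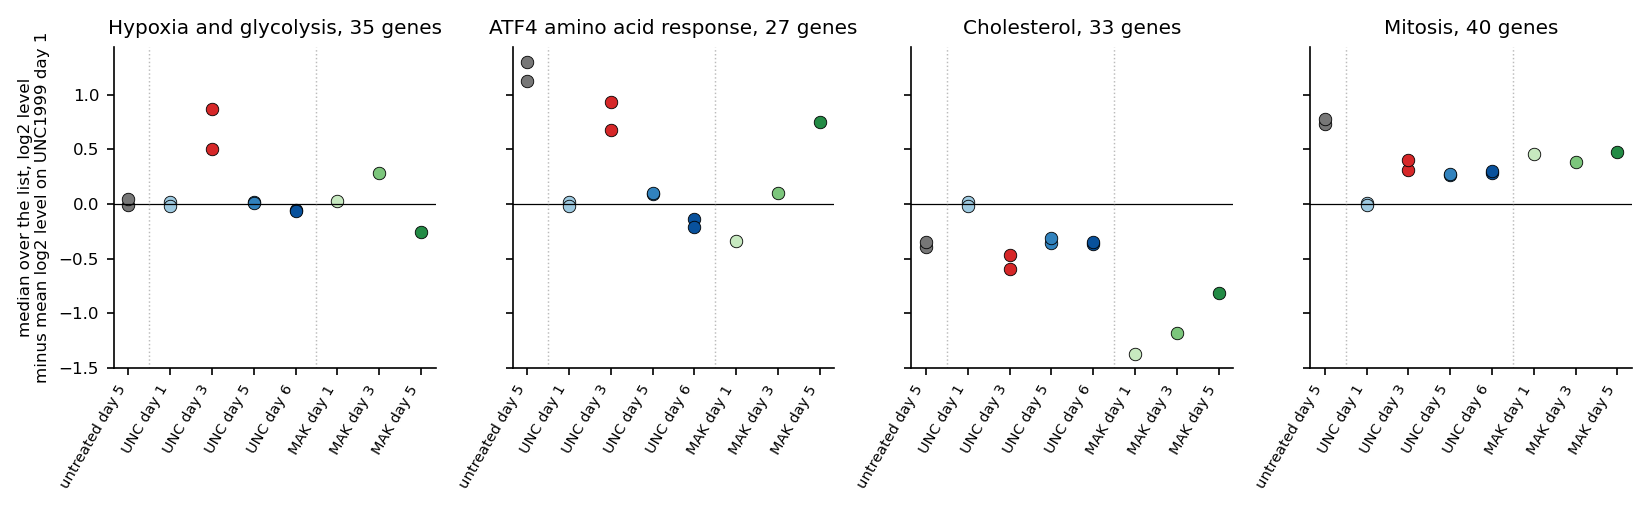
Median level of 4 gene lists in each of the 13 libraries, as a log2 difference from the mean of the 2 UNC1999 day 1 libraries, each point 1 library. The hypoxia and ATF4 lists peak on day 3 within UNC1999 treatment, the cholesterol list is highest on day 1, and the mitosis list is lowest on day 1.

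Mitosis genes rose by small amounts. Of 40 tested, 29 were called higher on day 3 and 1, NCAPH, lower, with a median log2 fold change of 0.35. None of them passed a test against a 1.5-fold change. CENPE, a kinetochore motor, rose to 113 and 129 CPM on day 3, against 72.6 and 68.8 CPM on day 1 (log2 fold change 0.78 ± 0.09 SE, adjusted p = 1.74e-07). AURKA, a spindle kinase, rose to 116 and 142 CPM on day 3, against 77.6 and 78.3 CPM on day 1 (log2 fold change 0.73 ± 0.09 SE, adjusted p = 9.67e-07). The summed level of the list was 6390 to 6730 CPM on day 3, against 5080 to 5140 CPM on day 1, and 8180 to 8600 CPM in untreated cells. The day 1 UNC1999 libraries were the lowest of the 13, and both UNC1999 day 3 libraries stayed under the untreated ones.

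DNA replication genes were less uniform, with 13 of 44 called higher on day 3 (29.5%) and 4 lower (9.09%). CDT1, which loads the replicative helicase, rose to 285 and 297 CPM on day 3, against 189 and 173 CPM on day 1 (log2 fold change 0.68 ± 0.1 SE, adjusted p = 8.79e-06). E2F2, an activator of S phase genes, rose to 164 and 196 CPM on day 3, against 114 and 115 CPM on day 1 (log2 fold change 0.66 ± 0.09 SE, adjusted p = 4.5e-06). The higher count was 8 without day 1 replicate 1 or without day 3 replicate 1, and the lower count was 0 without day 1 replicate 2 or without day 3 replicate 2. On day 5, 23 of the 44 were called lower than on day 3 (52.3%) and none higher, against 14.4% and 14.2% of all genes. That step uses the same day 3 libraries, so its direction is not an independent result. Of 48 replication-dependent histone genes, whose transcripts mostly lack poly(A) tails and whose copies are near identical, 1 was called higher and none lower.

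Of 6 CDK inhibitors tested, 3 were called higher on day 3 and none lower. CDKN1B, which encodes p27, rose to 73.9 and 84.6 CPM on day 3, against 51.6 and 48.4 CPM on day 1 (log2 fold change 0.66 ± 0.09 SE, adjusted p = 2.64e-06), while untreated cells were at 169 and 187 CPM. CDKN2C rose to 95.4 and 97.2 CPM on day 3, against 62.6 and 63.6 CPM on day 1 (log2 fold change 0.61 ± 0.08 SE, adjusted p = 3.29e-06). CDKN1A, which encodes p21, was at 3.26 and 4.24 CPM on day 3, against 0.956 and 1.58 CPM on day 1 (log2 fold change 1.57 ± 0.31 SE, adjusted p = 0.000349), and reached 8.48 and 8.45 CPM on day 6.

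Among genes of the Polycomb machinery, calls went both ways. Of 13 PRC2 subunits, JARID2, an accessory subunit, was the 1 called higher, at 28.5 and 32.4 CPM on day 3, against 17.6 and 15.2 CPM on day 1 (log2 fold change 0.89 ± 0.12 SE, adjusted p = 3.51e-06). Another 5 were called lower, and without day 1 replicate 2 none was called lower. PRC1, the partner complex, had 7 of 21 subunits called higher (33.3%), with RYBP, CBX7 and PHC1 among them. Another 3 were called lower (14.3%), under the 18.2% of all genes, and fewer without day 1 replicate 1. L3MBTL2 had the largest of these falls, a log2 fold change of -0.77. Of 9 H3K27 demethylases and MLL-family methyltransferases, 6 were called lower by modest amounts, as KMT2D at -0.48 ± 0.09 SE, but 3 without day 1 replicate 1 and 2 without day 1 replicate 2.

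Developmental regulators, the classical Polycomb targets, were mostly too low to test. Of 142 developmental transcription factors outside HOX looked up, 37 were tested, and 12 of these were called higher on day 3 and 2 lower, which fell to 6 higher without day 1 replicate 1. Since a silent gene enters the test only where some library expresses it, that count describes those 37 and not the whole list. TBX21, the T-bet factor, had 123 counts on day 3 and 1 count on day 1, a ratio of 111 with an exact 95% interval of 19.5 to 4410, and reached 18.1 and 13 CPM on day 6. MNX1 rose to 10.8 and 13.2 CPM on day 3, against 4.01 and 3.99 CPM on day 1 (log2 fold change 1.59 ± 0.24 SE, adjusted p = 1.49e-05). Of 39 HOX genes 19 were tested, with 5 called higher and 2 lower. Without day 1 replicate 1 the higher count was 2, and without day 1 replicate 2 the lower count was 0. HOXA13 was at 2.16 and 1.88 CPM on day 3, against 0.278 and 0.275 CPM on day 1 (log2 fold change 2.85 ± 0.59 SE, adjusted p = 0.000529).

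**Figure D4:**
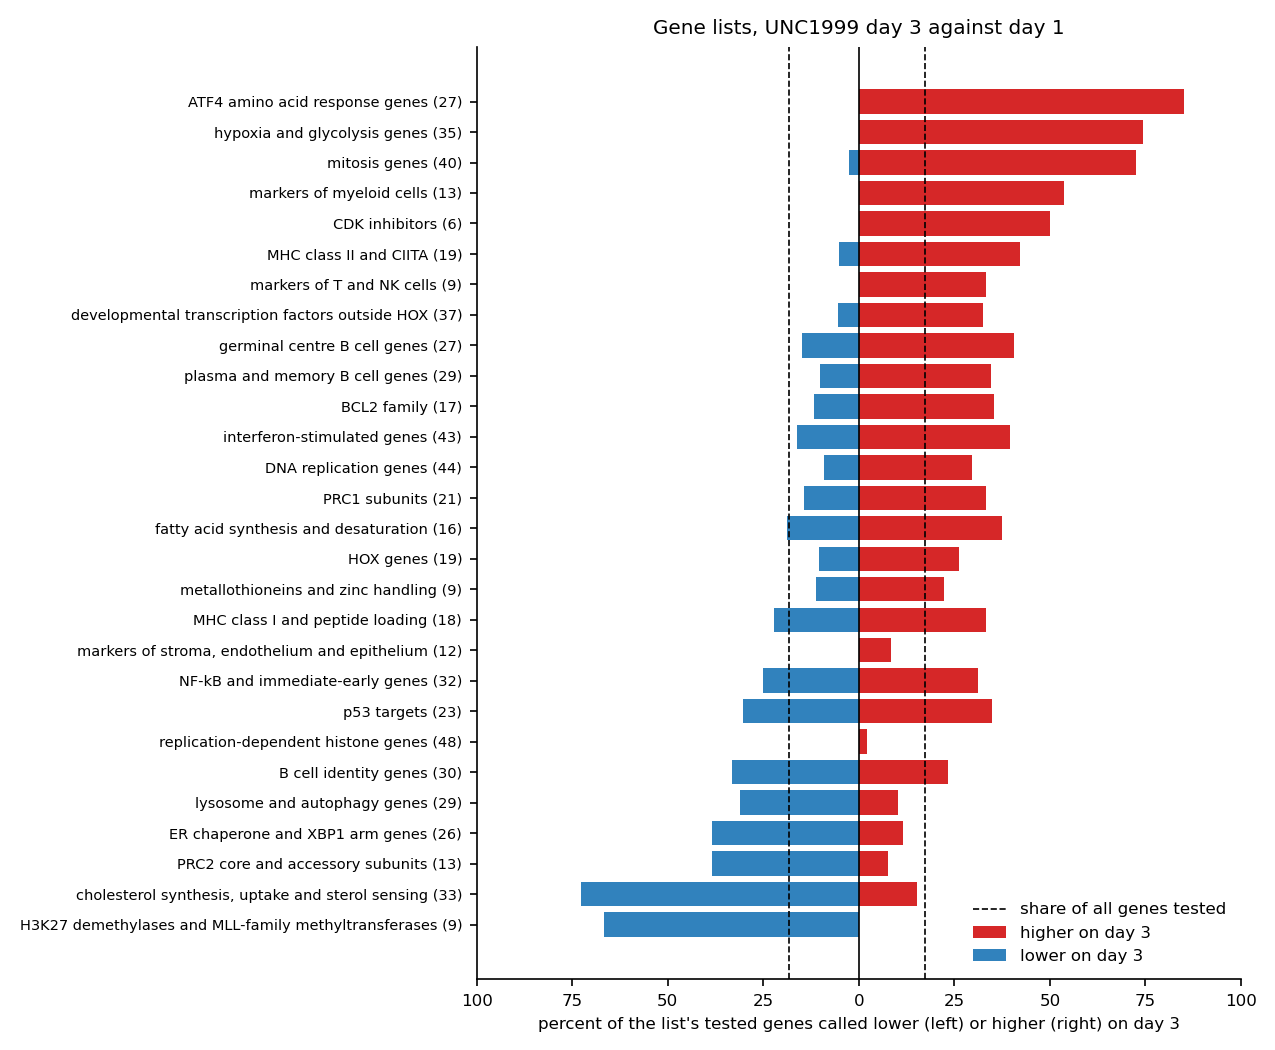
Share of each list's tested genes called higher (right) or lower (left) on UNC1999 day 3 than on day 1, in percent, with the number of genes tested in brackets. The dashed lines mark the shares of all genes tested, 17.2% higher and 18.2% lower. The ATF4, hypoxia and mitosis lists lie furthest to the right and the cholesterol and methyltransferase lists furthest to the left.

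Of 27 germinal centre genes, 11 were called higher (40.7%) and 4 lower (14.8%), against 17.2% and 18.2% of all genes tested. BACH2, a repressor that delays plasma cell fate, rose to 26.5 and 42.9 CPM on day 3, against 7.12 and 4.71 CPM on day 1 (log2 fold change 2.55 ± 0.18 SE, adjusted p = 1.11e-10). BCL6, the master repressor of the germinal centre, rose to 478 and 475 CPM on day 3, against 295 and 315 CPM on day 1 (log2 fold change 0.64 ± 0.07 SE, adjusted p = 1.86e-07). SERPINA9, a germinal centre marker, fell to 38.9 and 52.3 CPM on day 3, against 112 and 117 CPM on day 1 (log2 fold change -1.32 ± 0.11 SE, adjusted p = 2.39e-09). BACH2 stood at 71 and 73.3 CPM in untreated cells, above all day 1 and day 3 libraries.

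Of 29 plasma and memory B cell genes, 10 were called higher and 3 lower. IRF4, needed for plasma cells, rose to 12.1 and 28.5 CPM on day 3, against 2.93 and 0.928 CPM on day 1 (log2 fold change 3.38 ± 0.39 SE, adjusted p = 3.12e-07), and was at 2.72 and 4.2 CPM on day 5. Its value was 4.45 without day 1 replicate 1 and 2.64 without day 3 replicate 2. CD44, an adhesion receptor, rose to 4.88 and 5.65 CPM on day 3, against 0.463 and 0.722 CPM on day 1 (log2 fold change 3.16 ± 0.4 SE, adjusted p = 1.45e-06). PRDM1, the plasma cell regulator, had 8 counts on day 3 and 1 on day 1. Beside 17.2% and 18.2% of all genes, 7 of 30 B cell identity genes were called higher (23.3%) and 10 lower (33.3%). IKZF1 and IKZF3 were among the higher, POU2F2 and SPIB among the lower. The lower count was 3 without day 1 replicate 2, 6 without day 1 replicate 1 and 5 without day 3 replicate 2.

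MHC class II genes, which present antigen to T helper cells, were called higher for 8 of 19 and lower for 1. HLA-DOA rose to 123 and 123 CPM on day 3, against 75.6 and 59.3 CPM on day 1 (log2 fold change 0.86 ± 0.1 SE, adjusted p = 1.68e-07). Class I genes were called higher for 6 of 18 and lower for 4, or 2 without day 1 replicate 2. In the fit to all 13 libraries the class I shares were 33.3% and 22.2%, against 17.2% and 18.2% of all genes. HLA-B rose to 1170 and 1220 CPM on day 3, against 643 and 609 CPM on day 1 (log2 fold change 0.93 ± 0.07 SE, adjusted p = 5.55e-10). HLA genes share sequence, so reads could pass between them.

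Interferon-stimulated genes were called higher for 17 of 43 and lower for 7, or 4 in 3 of the 4 fits that left out 1 library. In the fit to all 13 libraries these shares were 39.5% and 16.3%, the second near the 18.2% of all genes. OAS3, a sensor of double-stranded RNA, rose to 108 and 123 CPM on day 3, against 34.5 and 36.5 CPM on day 1 (log2 fold change 1.7 ± 0.11 SE, adjusted p = 2.93e-11). NF-kB and immediate-early genes were split, 10 of 32 higher and 8 lower, or 5 lower without day 1 replicate 2. JUN was at 7.26 and 15.8 CPM on day 3, against 1.42 and 1.65 CPM on day 1 (log2 fold change 2.91 ± 0.35 SE, adjusted p = 6.08e-07), or 2.24 without day 3 replicate 2. The higher count of that list was 4 to 6 in 3 of the 4 fits that left out 1 library, those without day 1 replicate 1, day 1 replicate 2 or day 3 replicate 2.

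Genes of the p53 response were called higher for 8 of 23 and lower for 7, or 4 without day 1 replicate 2. PMAIP1, the death-promoting NOXA, rose to 89.7 and 102 CPM on day 3, against 53.7 and 52.1 CPM on day 1 (log2 fold change 0.86 ± 0.09 SE, adjusted p = 1.61e-07). BTG2, a growth inhibitor, fell to 95.1 and 91.9 CPM on day 3, against 181 and 169 CPM on day 1 (log2 fold change -0.91 ± 0.07 SE, adjusted p = 1.55e-09). Of 17 BCL2 family genes 6 were called higher and 2 lower, or 1 without day 1 replicate 2. BCL2, which blocks cell death, rose to 6.81 and 7.75 CPM on day 3, against 1.14 and 1.2 CPM on day 1 (log2 fold change 2.63 ± 0.23 SE, adjusted p = 4.51e-09).

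Chaperones of the endoplasmic reticulum were called lower for 10 of 26 genes and higher for 3. HSPA5, the chaperone BiP, fell to 525 and 352 CPM on day 3, against 730 and 722 CPM on day 1 (log2 fold change -0.73 ± 0.11 SE, adjusted p = 1.68e-05). The lower count was 4 without day 1 replicate 2 and 5 without day 3 replicate 2. Lysosome and autophagy genes were called lower for 9 of 29 and higher for 3. SQSTM1, an autophagy receptor, fell to 128 and 123 CPM on day 3, against 268 and 246 CPM on day 1 (log2 fold change -1.03 ± 0.08 SE, adjusted p = 1.32e-09). GAA, the lysosomal enzyme that breaks down glycogen, rose to 23.6 and 20.1 CPM on day 3, against 4.07 and 3.85 CPM on day 1 (log2 fold change 2.46 ± 0.14 SE, adjusted p = 3.27e-12). Of 9 metallothionein and zinc genes tested, 2 were called higher (22.2%) and 1 lower (11.1%), against 17.2% and 18.2% of all genes.

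Markers of other cell types were present at low levels, and some were called higher on day 3. Of 29 myeloid, 19 T and NK, and 18 stroma, endothelium and epithelium markers counted, 13, 9 and 12 were tested. A silent gene enters the test only where some library expresses it, so the counts describe the tested markers alone. Of the 13 myeloid markers 7 were called higher (53.8%) and none lower, against 17.2% and 18.2% of all genes. The summed level of the myeloid list was 60.9 to 62.6 CPM on day 3, against 29.9 to 32.3 CPM on day 1. ITGAX rose to 9.57 and 11.3 CPM on day 3, against 0.493 and 1.31 CPM on day 1 (log2 fold change 3.55 ± 0.39 SE, adjusted p = 1.5e-07), or 4.48 without day 1 replicate 2. S100A8 had no count in any of the 4 libraries, CD14 and S100A9 had 4 and 5 counts on day 3, and LYZ was at 1.39 and 2.47 CPM on day 3 with no count on day 1, at least 40.5-fold higher. Of 9 tested T and NK markers 3 were called higher, CD3E, CD247 and CD5. Without day 1 replicate 1 that left 1, and CD5 lost its call with every left-out library but day 3 replicate 1. The summed level of that list was 17.9 to 18.5 CPM on day 3, against 10.8 to 11.4 CPM on day 1, and CD3D had no count in the 4 libraries. Of 12 tested markers of stroma, endothelium and epithelium 1, DCN, was called higher (3 of the 12 without day 3 replicate 1), at 22 and 25.4 CPM on day 3, against 6.38 and 5.33 CPM on day 1. The list summed to 23.2 to 28 CPM on day 3, against 5.71 to 6.54 CPM on day 1, nearly all of it DCN, while COL1A2, COL3A1 and VWF had no count. The part of other cells in any result was not tested. In bulk RNA, more cells of a type and more RNA per cell cannot be told apart.

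The step from day 3 to day 5 called 2175 genes higher (14.2%) and 2207 lower (14.4%) on day 5, and without day 5 replicate 2 the total of 4382 calls was 2919. The step from day 5 to day 6 called 71 genes higher (0.465%) and 49 lower (0.321%) on day 6, 120 in all, 17 to 37 when any 1 of its 4 libraries was left out and 674 in a fit to those 4 libraries alone. Since the day 6 libraries share nothing with the day 3 and day 1 libraries, the early changes can be set beside day 6 against untreated cells. That comparison called 4728 genes higher (30.9%) and 4171 lower (27.3%) on day 6, with the untreated libraries taken on day 5. Of all 2626 genes called higher on day 3, 55.2% were called higher and 23.3% lower on day 6 than in untreated cells, and of the 2775 called lower, 28.1% were called higher and 38.1% lower. Of the 1407 genes at least 2-fold higher on day 3, 70.2% were called higher and 8.39% lower on day 6 than in untreated cells. Of the 224 genes at least 2-fold lower on day 3, 7.59% were called higher and 36.6% lower. A gene silent on day 1 and in untreated cells was tested only where some other library, such as one of day 6, expressed it. That filter favours a high share called higher on day 6, so these shares are not an independent result.

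Other genes were not called between day 1 and day 3 but were called between day 3 and day 5. Day 1 was not tested against untreated cells here, so these need not be the first moves of these genes. The largest rises from day 3 to day 5 among genes with an unadjusted p above 0.05 in the first step were RIMS1, CHGA, GJB2, PHKA1 and PNMA2. RIMS1, a synaptic vesicle protein, had no count on day 3 or day 1, and was at 2.59 and 1.54 CPM on day 5 and 8.54 and 8.53 CPM on day 6. PHKA1, a phosphorylase kinase subunit, was at 7.2 and 6.46 CPM on day 5, against 0.19 and 0.0272 CPM on day 3 (log2 fold change 6 ± 0.49 SE, adjusted p = 1.76e-09), and at 7.96 and 6.87 CPM in untreated cells. CHGA rested on 1 library, with 0.958 and 10.6 CPM on day 5. The largest late falls were PHYHD1, SSPN, JSRP1, TBX6 and MLKL. MLKL, which carries out necroptosis, was at 0.311 and 0.92 CPM on day 5, against 3.93 and 2.69 CPM on day 3 (log2 fold change -2.41 ± 0.5 SE, adjusted p = 0.0006).

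The same step under MAK683, with 1 library a day that was taken to vary like the other groups, called 1558 genes higher (10.2%) and 1457 lower (9.54%) on day 3. It shares no library with the UNC1999 step. Of the 2626 genes that rose under UNC1999, 34.3% were called higher and 1.9% lower under MAK683, and 80.7% had a MAK683 fold change above 0, against 52.5% of all genes tested. Of the 2775 genes that fell, 25.5% were called lower and 3.03% higher under MAK683. The 2 sets of log2 fold changes had a Pearson correlation of 0.45 over the 5401 called genes and of 0.64 over the 4736 of these with a group mean of at least 2 CPM, given as a description across genes that share libraries and are not replicates.

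A test of the difference between the compounds' steps called 1501 genes, 698 with a higher log2 fold change under UNC1999 (4.57%) and 803 with a lower one (5.26%). Without UNC1999 day 1 replicate 1 the total was 895. The single MAK683 libraries were again taken to vary like the other groups, so these differences have no replicate check on that side. Of the genes that rose under UNC1999, 387 had a higher and 61 a lower fold change than under MAK683. Of those that fell, 476 had a lower and 61 a higher one. These genes were chosen on the same UNC1999 libraries that enter the difference. That choice favours these directions, so they are not an independent result.

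Of the cholesterol genes, 20 of 33 had a lower fold change under UNC1999 and 2 a higher one. HMGCS1 was at 301 CPM on day 3 and 227 CPM on day 1 of MAK683, a log2 fold change of 0.41 ± 0.1 SE, and the difference between compounds was -1.52 ± 0.12 SE (adjusted p = 6.02e-08). For FASN the difference was -1.76 ± 0.14 SE (adjusted p = 2.83e-08). HMGCS1 was thus nearer in level between the compounds on day 3 than on day 1. Mitosis genes summed to 5080 to 5140 CPM on day 1 of UNC1999, against 7180 CPM on day 1 of MAK683, and 17 of 40 had a higher fold change under UNC1999 and none a lower one.

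ATF4 targets were called higher under MAK683 for 9 of 27 genes and lower for 1, and 11 had a higher fold change under UNC1999. Of all genes, 10.2% were called higher and 9.54% lower under MAK683. SESN2 was at 80.8 CPM on day 3 and 50.5 CPM on day 1 of MAK683, and its difference between compounds was 1.53 ± 0.23 SE (adjusted p = 0.000144). Hypoxia and glycolysis genes were called higher under MAK683 for 15 of 35 and lower for none, with 7 fold changes higher and 1 lower under UNC1999. BACH2 rose under MAK683 by a log2 fold change of 2.62 ± 0.29 SE, a difference between compounds of -0.07 ± 0.36 SE, and DBN1 by 2.3 ± 0.18 SE, a difference of 0.26 ± 0.22 SE. JUN fell under MAK683, to 0.884 CPM on day 3 against 3.63 CPM on day 1, and its difference was 4.94 ± 0.63 SE (adjusted p = 2.96e-05).

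**Figure D5:**
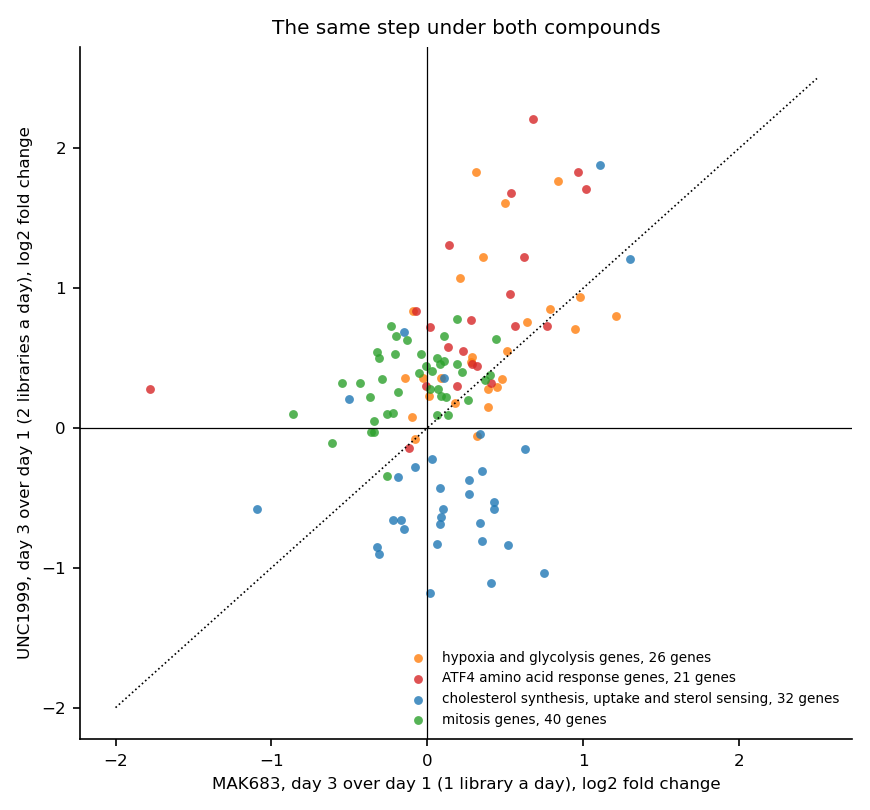
Log2 fold change of day 3 over day 1 under UNC1999 (vertical, 2 libraries a day) and MAK683 (horizontal, 1 library a day) for members of 4 lists with at least 2 CPM in all 4 groups, the dotted line marking equal change. Most of the 32 cholesterol genes lie under the line, most of the 40 mitosis genes above it, and the 26 hypoxia and 21 ATF4 genes lie mainly in the upper part.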

How the data were processed

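SUDHL10 RNA was sequenced as 50 bp single-end reads from TruSeq V2 libraries, per the labels' protocols, a kit that does not mark strand, so overlapping and antisense genes cannot be told apart. The authors deposited whole-number counts per gene. The submitters' processing notes name STAR 2.5.3a among several tools and the mouse build mm9. The sources used here do not give the gene counter, the annotation or a human build.

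Of 25369 genes, 15278 passed edgeR's filterByExpr, and 5320 were at 0 in every library. Counts were fitted with edgeR 4.0.16 (R 4.3.3), trimmed mean of M values scaling and a mean per compound and day over all 13 libraries, and tested two-sided with the quasi-likelihood F test. P-values were adjusted over all tested genes by Benjamini-Hochberg, with a threshold of 0.05. The fit had 5 residual and 18.6 prior degrees of freedom. Steps were tested on simulated data. Fold changes are fitted day 3 over day 1 values. Each SE was worked back from the test, as the absolute log2 fold change over the square root of its F statistic. It is not an SE given by the fit. A gene at 0 on day 1 was given a bound against 3 counts over the day, and one with 1 to 3 counts a count ratio with an exact 95% interval, which covers counting error only. Alternatives were limma 3.58.1 (voom), DESeq2 1.42.0, other scalings, filters and designs, a 1.5-fold test, left-out libraries, and a fit without the MAK683 day 5 library, chosen after seeing the data. The comparison of day 6 with untreated cells was added at that stage too.

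The members and gene lists were chosen with earlier results of these data known. Named genes were PRC2 core genes and CDKN2A, the 15 largest called rises and falls with a group mean of at least 2 CPM and no overlap, the 5 smallest adjusted p each way, up to 4 genes a list, the 10 largest differences between compounds and 5 late movers each way. Members of lists named beyond these, such as INSIG1, ASNS, SLC7A11, DDIT3, LDHA, ENO1, GAPDH, ABCA1, INSIG2, NPC1 and NCAPH, were chosen after their values were seen. No human sequence table was used here, so promoter letters were not described. Some named genes are not reported here.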

Additional observations from a re-analysis of the deposited data

Results flagged for a closer look

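The results below differed between the compounds by a test of the difference itself, the log2 fold change of day 3 over day 1 under UNC1999 minus that under MAK683. The MAK683 side rests on 1 library a day. Over all genes, 698 had a higher and 803 a lower fold change under UNC1999.

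The 10 largest differences among the genes called were in HOXB9 (11.38), CCR7 (10.89), C1orf127 (9.24), SEC16B (9.02), TST (6.59), TBC1D16 (5.81), TSPAN9 (5.73), DNAJC6 (5.53) and PPFIA4 (5.36) upward and C12orf77 (-6.75) downward. HOXB9, CCR7 and C1orf127 had no count in the MAK683 day 3 library and C12orf77 none in the MAK683 day 1 library, so the size of those 4 values depends on the prior count of the fit. CCR7 encodes a chemokine receptor that guides lymphocytes to lymph nodes, and TST a mitochondrial sulfur transferase.

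Of the cholesterol genes, 2 had a higher and 20 a lower fold change under UNC1999. The counts were 17 and 0 for mitosis genes, 11 and 0 for ATF4 targets, and 7 and 1 for hypoxia and glycolysis genes, higher first.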

How the results depend on the processing

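The counts of called genes kept within 1.5 times of those reported under every alternative run but these. Against a 1.5-fold change the calls were 1294 for day 3 against day 1, 656 for day 5 against day 3, 6 for day 6 against day 5, 470 for MAK683, 122 for the difference between compounds and 4157 for day 6 against untreated cells, and of the lists 0 mitosis, 13 ATF4 and 11 hypoxia genes were called higher and 8 cholesterol genes lower. Day 6 against day 5 gave 270 calls without the filter, 216 with DESeq2 and 674 in its 4 libraries alone. With 1 library left out, calls ran from 3292 (without day 1 replicate 2) to 5389 for day 3 against day 1, from 2919 to 4257 for day 5 against day 3, from 17 to 37 for day 6 against day 5 and from 895 to 1851 for the difference between compounds. CDKN2A, not called, turned to -0.03 without day 1 replicate 1 and -0.02 without day 3 replicate 1, in a range up to 0.17. The causes were not tested, beyond the stricter null of the 1.5-fold test and the fewer samples.

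Same-numbered UNC1999 libraries did not deviate together over all tested genes (correlations from -0.042 to 0.024). That measure cannot exclude a shared culture or batch, and the labels do not say whether these libraries were paired. A fit of the 8 UNC1999 libraries with a replicate block called 5103, 4600 and 162 genes in the 3 successive steps, against 5207, 4684 and 134 without the block.

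The share of calls that were higher was 48.6% as reported, 57.2% with DESeq2's size factors in edgeR, 58% with library-size scaling, 57.4% with DESeq2 and 63.7% without the filter. Of 728 counts of list members under the alternatives, 110 moved by over 1.5 times. With 2 libraries a day from cultures not said to be separate, small changes rest on few samples, and genes with few counts on day 1 have wide intervals.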

Other observations

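Small nucleolar and Cajal body RNAs are a group defined after seeing the data. Of 193 tested, none was called higher on day 3 than on day 1, against 17.2% of all genes, and 38 were called lower, a share near the 18.2% of all genes, with a median log2 fold change of -1.09. On day 5, 14 were called higher than on day 3, which uses the same day 3 libraries, and none lower. Both shares lie under those of all genes in that step, 14.2% higher and 14.4% lower. Under MAK683, 5 were called lower on day 3 and none higher, with a median of -0.66. These shares too lie under those of all genes, 9.54% lower and 10.2% higher.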
